A study of Mus musculus with 12 samples.

Results

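The keratin genes of epidermis and hair were followed in healing back-skin wounds of diabetic mice. The genes were a fixed list of 43 Krt symbols, matched to the Ensembl identifiers of the count files. Of these, 42 were found among 54232 identifiers, and 41 had at least 15 counts summed over the 12 libraries. Krt34, with 17 counts, lay just inside that limit, and Krt76, with 4 counts, lay outside it and was dropped. The remaining hair keratin of the list was not analysed here. Of the 41 genes, 21 lie on chromosome 11 between positions 99279959 and 100261029 and 20 on chromosome 15 between positions 101347444 and 102032027 (GRCm38, GENCODE M21).

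Every mouse was male, of the C57BLKS/J strain, homozygous for the db mutation of the leptin receptor gene Lepr (db/db), and 12.5 weeks old by label. This mutation causes obesity and diabetes, so the patched wounds and their controls alike are wounds of diabetic skin, and no wild-type or unwounded skin was analysed here. Each wound was a full-thickness punch of 6 mm, collected on day 10. The control group (TD, n = 5) wore a transparent Tegaderm film only. The Strain group (n = 4) wore a patch built to put about 30% strain on the wound, and the No Strain group (n = 3) wore a patch without strain. Whether any mouse gave more than 1 wound is not in the labels, so p-values measure the spread between these wounds. The TD samples carry title numbers 1 to 6 and the patched samples 7 to 15, so sample order and patch cannot be told apart.

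Keratins are the intermediate filament proteins of epithelial cells, and each filament is built from a type I and a type II keratin in pairs. In mouse skin the basal layer makes Krt5 with Krt14, cells that leave it switch to Krt1 with Krt10, and keratinocytes at a wound edge make Krt6a, Krt6b, Krt16 and Krt17. Hair follicles use further pairs in the inner root sheath, the companion layer and the hair shaft. The genes are described below in those roles. The type I genes, except Krt18, sit in the chromosome 11 cluster, and Krt18 and the type II genes sit in the chromosome 15 cluster.

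Libraries held 20354677 to 25059371 counts, of which keratins took 1.04% to 2.64%. Levels are CPM, the counts of a gene relative to the TMM-scaled total of its library, and 3 counts are at most 0.147 CPM of the unscaled total. As in skin epithelium, Krt5, Krt14, Krt1 and Krt10 each exceeded 600 CPM in all 12 libraries. Per kilobase of exon, the mean over all libraries was highest for Krt14, at 1970 CPM per kb, followed by Krt10 (1080), Krt5 (1060), Krt16 (943), Krt17 (675) and Krt6b (646). The length used joins the exons of all annotated transcripts, 4415 bases for Krt1 and 2114 for Krt10. Krt1 thus stood at 596 CPM per kb, although its mean of 2630 CPM was second to that of Krt14 (3470). Of the 42 keratins found, 32 had enough counts for testing in edgeR's quasi-likelihood fit over 18618 genes, with Benjamini-Hochberg adjustment over all of them and a threshold of 0.05. In bulk tissue, fewer cells of a type and less RNA per cell cannot be told apart.

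Under the Strain patch, 6 of the 32 keratins differed from TD (18.8%), against 12.6% of all genes tested. Krt6b was higher (1 of 32, against 6.2% of all genes), and Krt80, Krt71, Krt73, Krt36 and Krt24 were lower (5 of 32, against 6.41%). At an unadjusted p under 0.05 there were 16, against 29.5% of all genes. Under the No Strain patch, 8 of 32 differed from TD (25%), against 17.8% of all genes. Krt6b and Krt18 were higher (2 of 32, against 9.35% of all genes), and Krt15, Krt80, Krt73, Krt36, Krt75 and Krt23 were lower (6 of 32, against 8.4%). At an unadjusted p under 0.05 there were 18, against 33.5% of all genes. Among the listed genes called, the follicle keratins of the inner root sheath, companion layer and hair shaft were all on the lower side and the wound-edge keratin Krt6b on the higher side. Krt71, Krt36 and Krt35 had at most 6, 9 and 6 counts in any patched wound, below the minimum count of 10 set for testing. They, and likewise Krt73 and Krt25, entered the test through their TD counts, so a lower level in patched wounds was nearly set in advance. These genes are part of the medians and of the counts of lower keratins given here. The median log2 fold change over the 32 keratins was -0.80 for Strain against TD, where that of all genes was 0.02, and -0.89 for No Strain against TD, where that of all genes was 0. Libraries did not overlap between the groups for 9 keratins in the first comparison, against 14.6% of all genes, and for 12 in the second, against 26.7% of all genes. With both patches set together against TD, 14 of 32 passed (43.8%, against 24.4% of all genes), 2 of them higher (12.4% of all genes) and 12 lower (12.1%). At an unadjusted p under 0.05 there were 17, against 38% of all genes, and 8 did not overlap, against 11% of all genes. These comparisons share the TD wounds. With the title letter, L or R, as a covariate, Krt80 alone passed for Strain against TD, and Krt80, Krt36 and Krt73 passed for No Strain against TD, where all genes gave 798 and 2145 calls. In replicate order the letters were L, R, R, R and R in TD, L, L, R and L under Strain, and R, L and L under No Strain. The letter thus partly follows the patch, and this fit cannot fully separate them.

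No keratin differed between the Strain and No Strain patches by edgeR (0 of 32, against 0% of all genes). Krt7, Krt8 and Krt18 had an unadjusted p under 0.05 in that comparison, against 5.61% of all genes, and 3 keratins had libraries that did not overlap, against 5.62% of all genes. DESeq2 called 1 keratin, Krt18, among 28 genes in all. The smallest adjusted p was 0.872 in edgeR.

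**Figure D1:**
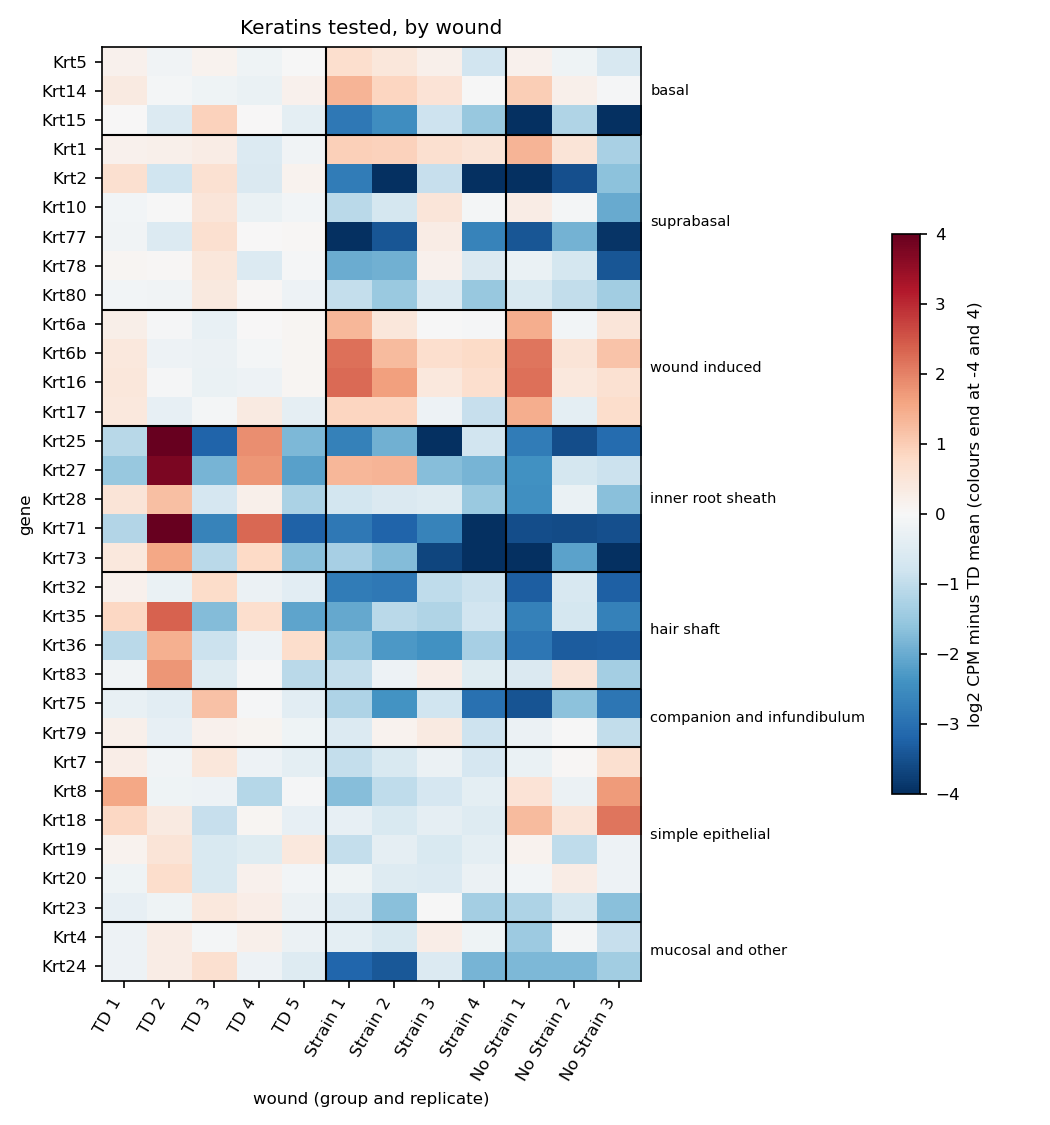
Log2 CPM of the 32 tested keratins (rows, by role) in each wound (columns) minus the TD mean of that gene, with colours ending at -4 and 4. Krt6b and Krt16 are red and Krt15, Krt2, Krt80, Krt36, Krt75 and Krt24 blue in the patched wounds, and TD replicate 2 stands out in red in the inner root sheath rows.

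The promoters of 4 follicle keratins, spread over both clusters, are shown. They are the inner root sheath, companion layer and hair shaft genes that passed in a pairwise comparison with TD. In the test of both patches together, which reuses the same wounds and is no further support, each was lower, as were Krt25, Krt32 and Krt35 (not shown). Krt71, Krt73, Krt36, Krt25 and Krt35 entered the test through their TD counts, so a lower level in patched wounds was nearly set in advance. The windows are the 150 bases before the RefSeq transcription start (GRCm38.p6), all on the minus strand, at chr15:101743098-101743247 for Krt71, chr15:101802361-101802510 for Krt73, chr11:100105627-100105776 for Krt36 and chr15:101573905-101574054 for Krt75. Capitals mark TATAA, the core of a TATA box.
Krt71: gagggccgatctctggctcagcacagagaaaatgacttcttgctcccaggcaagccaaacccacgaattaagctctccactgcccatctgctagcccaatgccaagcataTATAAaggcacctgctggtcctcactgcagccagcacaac
Krt73: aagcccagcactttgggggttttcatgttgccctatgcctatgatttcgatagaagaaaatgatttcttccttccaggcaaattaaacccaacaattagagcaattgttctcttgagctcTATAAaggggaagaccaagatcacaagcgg
Krt36: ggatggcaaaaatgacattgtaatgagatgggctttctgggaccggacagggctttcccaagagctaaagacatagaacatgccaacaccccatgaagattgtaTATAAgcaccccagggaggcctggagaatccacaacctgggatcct
Krt75: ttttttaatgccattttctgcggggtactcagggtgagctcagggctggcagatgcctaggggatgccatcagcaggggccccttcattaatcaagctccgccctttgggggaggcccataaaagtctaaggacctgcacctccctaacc
TATAA begins 40 bases before the start in Krt71, 30 in Krt73 and 46 in Krt36, and the Krt75 window has none on either strand. Searched on both strands, TATAA occurs in 14.2% of 32851 windows of this length and in 17 of the 28 keratin genes that have one. The AP-1 core TGANTCA, a binding motif of Fos and Jun factors, is in none of the windows shown, in 1 of those 28 keratin genes and in 4.24% of all windows. The longest run of bases shared by any pair of the printed windows is 9. A match describes letters only.

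Of the 3 basal keratins, Krt14 and Krt5 passed in no comparison and Krt15 was lower. Krt14 is the type I keratin of the basal layer. It measured 3320, 2480, 2290, 2150 and 2910 CPM in TD, 6730, 4700, 3810 and 2550 CPM under Strain, and 5150, 3000 and 2530 CPM under No Strain. The highest libraries were patched wounds, and the groups overlapped. The log2 fold change was 0.76 (SE 0.278) for Strain against TD and 0.44 (SE 0.301) for No Strain against TD, with adjusted p = 0.0942 and 0.339 (edgeR). With the non-keratin epithelial marker list as a covariate both passed, at 0.73 with adjusted p = 0.0173 and 0.62 with adjusted p = 0.0393. With the muscle list neither passed, at 0.38 (adjusted p = 0.875) and 0.24 (adjusted p = 0.777). With the title letter neither passed, at 0.77 (adjusted p = 0.188) and 0.44 (adjusted p = 0.395). DESeq2 gave 0.75 (adjusted p = 0.0413) and 0.43 (adjusted p = 0.32). Krt5, its type II partner, measured 2530, 2050, 2470, 2010 and 2240 CPM in TD, 3580, 3080, 2620 and 1340 CPM under Strain, and 2560, 1990 and 1440 CPM under No Strain. The log2 fold changes of Krt5 were 0.23 (SE 0.247, 95% interval -0.31 to 0.77) and -0.18 (SE 0.271), with adjusted p = 0.574 and 0.685 (edgeR).

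Krt15 is a type I keratin of resting basal cells and of the hair follicle bulge, where follicle stem cells reside. It measured 629, 429, 1190, 635 and 483 CPM in TD, 87.2, 112, 353 and 219 CPM under Strain, and 38.8, 270 and 33.4 CPM under No Strain. All 7 patched wounds lay below all 5 TD wounds. The level was 5.89-fold lower under No Strain (log2 fold change -2.56, SE 0.765, edgeR adjusted p = 0.0405) and 3.48-fold lower under Strain, where it missed the threshold (-1.80, SE 0.658, adjusted p = 0.0939). Against both patches together it was -2.18 (SE 0.554, adjusted p = 0.0166), and that call held whichever single library was left out. The No Strain call alone was lost in 8 of 12 such fits, with adjusted p up to 0.124.

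**Figure D2:**
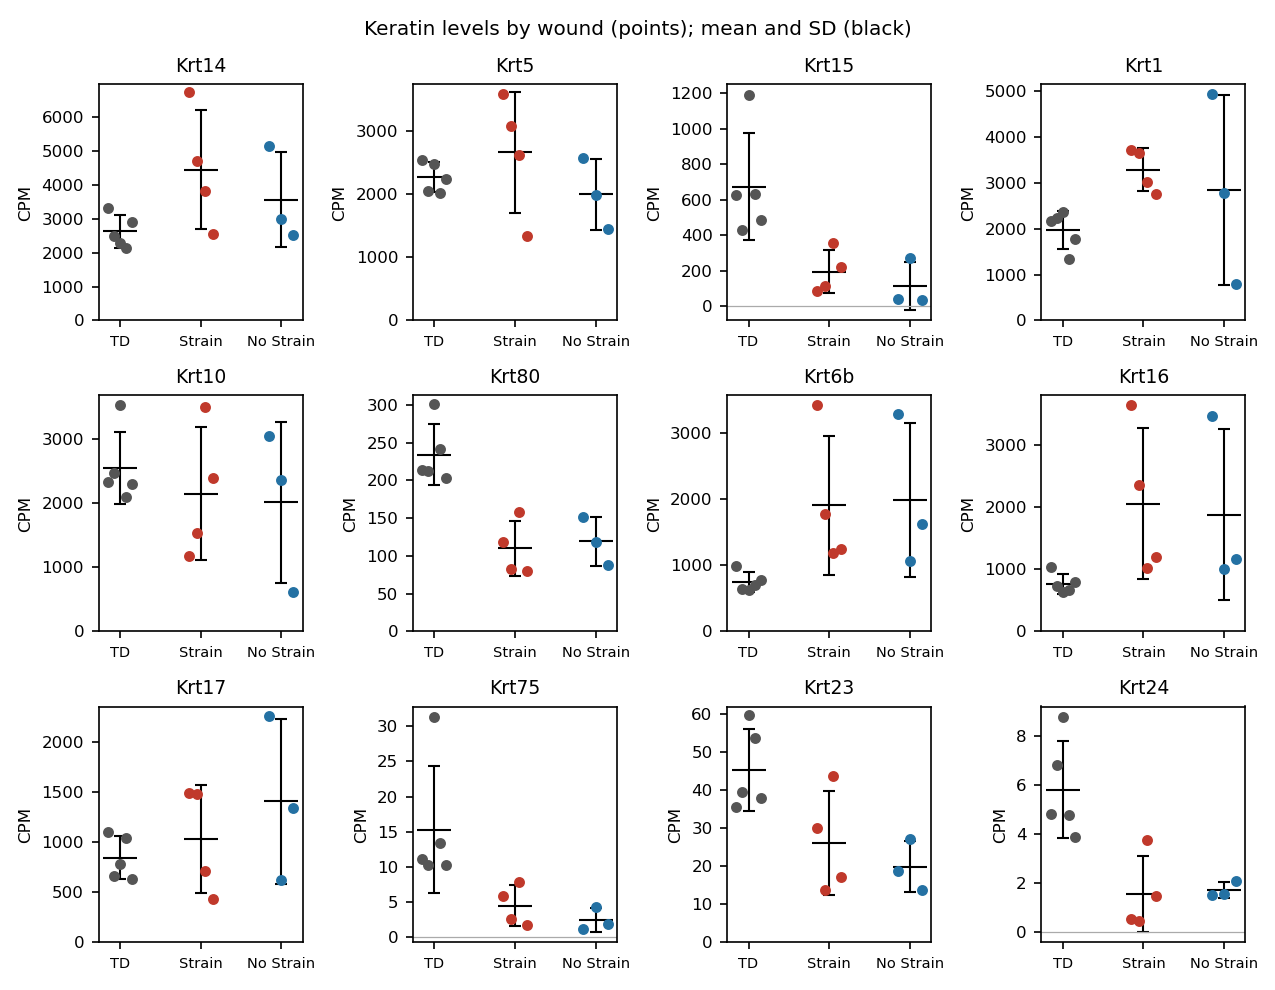
CPM of 12 keratins in each wound (points), with mean and SD of each group in black. Krt15, Krt80, Krt75 and Krt24 lie lower in all 7 patched wounds than in any TD wound, and Krt6b lies higher in all of them.

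Of the 6 suprabasal keratins, Krt80 was lower under each patch, and the major pair, Krt1 and Krt10, passed in no comparison. Krt1, the type II keratin of differentiating cells, measured 2160, 2240, 2370, 1340 and 1770 CPM in TD, 3720, 3660, 3020 and 2760 CPM under Strain, and 4940, 2790 and 790 CPM under No Strain. All Strain wounds lay above all TD wounds, but the log2 fold change of 0.74 (SE 0.384) had adjusted p = 0.225, and that of No Strain, 0.52 (SE 0.414), had adjusted p = 0.411 (edgeR). Krt10, its partner, measured 2340, 2480, 3540, 2100 and 2310 CPM in TD, 1180, 1530, 3500 and 2400 CPM under Strain, and 3060, 2370 and 617 CPM under No Strain. The patched wounds spread widely around the TD values, with log2 fold changes of -0.25 (SE 0.42, adjusted p = 0.735) and -0.34 (SE 0.46, adjusted p = 0.645). No Strain replicate 3 was the lowest library for both genes of the pair.

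Krt80, a type II keratin of cells late in differentiation, gave the steadiest difference among the suprabasal genes. It measured 214, 212, 301, 241 and 203 CPM in TD, 119, 82.5, 158 and 80.4 CPM under Strain, and 152, 118 and 87.7 CPM under No Strain. No patched wound reached the lowest TD wound. The level was 2.13-fold lower under Strain (log2 fold change -1.09, SE 0.226, adjusted p = 0.0143) and 1.97-fold lower under No Strain (-0.98, SE 0.249, adjusted p = 0.0224) in edgeR. The Strain call held in each of the 12 fits that left out a library, and the No Strain call was lost without No Strain replicate 2 or 3 (adjusted p up to 0.0909). Its exons overlap the antisense gene Gm35853, and the strand setting of the counting is not given in the sources used here, so reads of the pair cannot be told apart. The same holds for Krt5, Krt6a, Krt6b, Krt7, Krt8, Krt10, Krt32 and Krt75, whose exons also overlap a gene on the opposite strand.

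The other suprabasal members had lower means in patched wounds without passing in the pairwise tests. Krt2, a keratin of the upper spinous and granular layers, measured 31.6 to 87.0 CPM in TD and 0.315 to 29.3 CPM in the patched wounds, with no overlap. Its log2 fold changes were -2.61 (SE 0.965, adjusted p = 0.0968) for Strain and -2.90 (SE 1.11, adjusted p = 0.0918) for No Strain, and -2.76 (SE 0.799, adjusted p = 0.0286) for both patches together, a call lost in 4 of 12 fits without a library (up to 0.0633). Krt77, a type II relative of Krt1, ranged from 600 to 1350 CPM in TD. It was at 32.7 to 232 CPM in 6 patched wounds and at 1060 CPM in Strain replicate 3, the library in which Krt2 was also highest among patched wounds. For Krt77 the log2 fold changes were -1.46 (SE 0.856, adjusted p = 0.284) and -2.86 (SE 1.03, adjusted p = 0.0751). Krt78 ranged from 31.3 to 63.6 CPM in TD and from 4.27 to 52.3 CPM in patched wounds, with adjusted p = 0.366 for Strain and 0.300 for No Strain.

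Of the 4 wound-induced keratins, Krt6b was higher under each patch, and Krt16 was higher in the test of both patches against TD. Krt6b is a type II keratin of activated keratinocytes. It measured 987, 644, 631, 699 and 782 CPM in TD, 3430, 1770, 1180 and 1250 CPM under Strain, and 3290, 1060 and 1620 CPM under No Strain. The lowest patched wound exceeded the highest TD wound. The level was 2.55-fold higher under Strain (log2 fold change 1.35, SE 0.366, adjusted p = 0.0354) and 2.65-fold higher under No Strain (1.41, SE 0.389, adjusted p = 0.0306) in edgeR. Each pairwise call was lost in 6 of the 12 fits without a library, with adjusted p up to 0.0932 and 0.17, and the call for both patches (1.38, SE 0.334, adjusted p = 0.0134) was kept in all 12.

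Krt6a and Krt6b are near-identical copies: 30.6% of the 100-base windows of each recur in another gene, mostly in each other and in the pseudogene Gm5478. Their separate values are therefore uncertain, because the counting rule for reads that match several genes is not given in the sources used here. Krt6a measured 752, 623, 525, 650 and 673 CPM in TD, 1610, 873, 633 and 624 CPM under Strain, and 1770, 595 and 892 CPM under No Strain, which overlap. Its log2 fold changes were 0.54 (SE 0.333, adjusted p = 0.31) and 0.75 (SE 0.358, adjusted p = 0.167). With Krt6a, Krt6b and Gm5478 summed as 1 gene, the log2 fold change was 1.03 (adjusted p = 0.0767) for Strain, 1.14 (adjusted p = 0.057) for No Strain and 1.09 (adjusted p = 0.03) for both patches. The summed gene thus passed only in the last of these 3 comparisons.

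Krt16, the type I partner of Krt6, measured 1030, 729, 632, 660 and 792 CPM in TD, 3640, 2360, 1020 and 1200 CPM under Strain, and 3460, 1010 and 1160 CPM under No Strain. Strain replicate 3 and No Strain replicate 2 fell at the upper edge of TD and the other 5 patched wounds lay above it. The log2 fold changes were 1.42 (SE 0.428, adjusted p = 0.051) and 1.29 (SE 0.455, adjusted p = 0.0715), and 1.35 (SE 0.39, adjusted p = 0.0277) for both patches. This last call was lost in 5 of 12 fits without a library (adjusted p up to 0.0678), with a value of 0.96 without No Strain replicate 1. Of its 100-base windows, 24.3% recur in the pseudogene Gm11597 or in Krt14. Krt17, which marks wound edges and also the follicle's outer sheath, measured 1100, 659, 779, 1040 and 636 CPM in TD, 1490, 1480, 716 and 436 CPM under Strain, and 2260, 621 and 1340 CPM under No Strain. The groups overlapped, with log2 fold changes of 0.29 (SE 0.411, adjusted p = 0.682) and 0.74 (SE 0.442, adjusted p = 0.27).

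**Figure D3:**
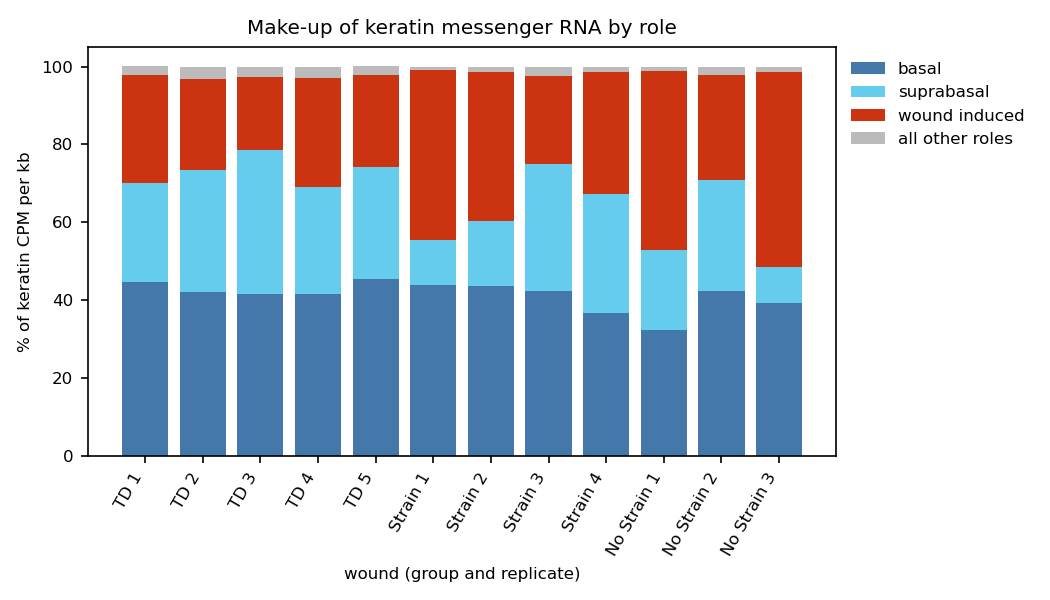
Share of summed keratin CPM per kb by role (basal, suprabasal, wound induced, all others) in each wound; bars sum to 100%. The wound-induced share is 18.8% to 27.9% in TD and 22.7% to 50% in the patched wounds.

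The make-up of keratin messenger RNA per kilobase varied more among patched wounds than among TD wounds. Wound-induced genes took 24.3% ± 3.73 (SD, n = 5) of it in TD, 34.0% ± 9.08 (SD, n = 4) under Strain and 41.0% ± 12.3 (SD, n = 3) under No Strain. Suprabasal genes took 30.1% ± 4.49 (SD, n = 5), 22.9% ± 10.4 (SD, n = 4) and 19.5% ± 9.55 (SD, n = 3) in the same order. Strain replicate 3 and No Strain replicate 2 had wound-induced shares of 22.7% and 27.1%, within the TD range. Basal genes took 43% ± 1.82, 41.6% ± 3.41 and 37.9% ± 5.12 (SD, n = 5, 4 and 3). Summed over all keratins found, the level was 13200 to 16900 CPM in TD, 13400 to 26100 CPM under Strain and 10900 to 27300 CPM under No Strain. These sums are descriptions without a test. The shares depend on the joined exon lengths, which are long for the suprabasal genes Krt80 (6393 bases) and Krt1 (4415 bases) and lower their weight.

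Keratins of the inner root sheath, which moulds the growing hair, were scarce and uneven. Krt71, a type II keratin of all layers of that sheath, had 20, 1371, 6, 249 and 3 counts in TD, 4, 3, 6 and 0 counts under Strain, and 2, 2 and 2 counts under No Strain. TD replicates 2 and 4 held nearly all of its counts, and the other 3 TD wounds lay close to the patched ones. Summed over the group, TD held 94.2 times the CPM of the Strain wounds (exact 95% interval 54.9 to 177) and 159 times that of the No Strain wounds (72.9 to 434), intervals that cover counting error only. The fitted log2 fold change was -6.49 (SE 1.89, adjusted p = 0.0453) for Strain and -7.15 (SE 2.3, adjusted p = 0.0519) for No Strain in edgeR. Without TD replicate 1, 2 or 4 the gene had too few counts in too few libraries to be tested, and in the 9 other fits without a library the Strain call was lost in 7. Krt71 entered the test through its TD counts, so a lower level in patched wounds was nearly set in advance.

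Krt25, a type I keratin of the same sheath, had most of its counts in the same TD wounds, with 15, 710, 2, 136 and 8 counts in TD, 3, 7, 0 and 17 counts under Strain, and 3, 1 and 2 counts under No Strain. Its log2 fold changes were -4.50 (SE 1.57, adjusted p = 0.0821) and -6.23 (SE 2.12, adjusted p = 0.0634), and -5.37 (SE 1.39, adjusted p = 0.0179) for both patches. Without TD replicate 2 the value for both patches was -3.25 (adjusted p = 0.0628). Krt73, a type II keratin of the sheath's cuticle, was spread more evenly over TD, with 66, 148, 23, 88 and 13 counts, against 15, 12, 2 and 1 counts under Strain and 0, 9 and 1 counts under No Strain. All No Strain wounds lay below TD, and 1 Strain wound reached into its range. Its log2 fold changes were -2.99 (SE 0.887, adjusted p = 0.0481) and -4.18 (SE 1.13, adjusted p = 0.028) in edgeR. Without TD replicate 2 they were -2.49 (adjusted p = 0.098) and -3.67 (adjusted p = 0.0504). Over all fits without a library the Strain call was lost in 10 of 12 (up to 0.0996) and the No Strain call in 4 of 12 (up to 0.1), while that for both patches (-3.58, SE 0.775, adjusted p = 0.00805) was kept in all 12. Krt25 and Krt73 entered the test through their TD counts, so a lower level in patched wounds was nearly set in advance. Krt27 and Krt28, other type I sheath keratins, passed in no comparison, with log2 fold changes against TD of -1.39 (SE 1.24) under Strain and -3.19 (SE 1.61) under No Strain for Krt27, and of -1.09 (SE 0.558) and -1.54 (SE 0.643) for Krt28. Krt26 and Krt72 had 43 and 41 counts in all and were not tested.

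Hair shaft keratins, the hard keratins of cortex and cuticle, were at the limit of detection in most wounds. Krt36, a type I member, had 13, 83, 16, 26 and 47 counts in TD, 7, 4, 4 and 9 counts under Strain, and 2, 1 and 1 counts under No Strain. Every patched wound lay below every TD wound. The fitted log2 fold change was -2.47 (SE 0.605, adjusted p = 0.0255) for Strain and -4.57 (SE 0.871, adjusted p = 0.0069) for No Strain in edgeR. In summed counts, TD held 5.72 times the Strain CPM (exact 95% interval 3.73 to 9.16, counting error only) and 26.7 times the No Strain CPM (10.3 to 99.2). At 1 to 9 counts in a patched library the size of the fold is loosely set, and the gene was tested only because of its TD counts. The No Strain call held in all 12 fits that left out a library, and in the fit without TD replicate 2 it was -4.04 (adjusted p = 0.00903). The Strain call was lost without Strain replicate 2 or 3 (adjusted p up to 0.0802).

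Krt32, a type I keratin of the hair cuticle, measured 1.36, 0.986, 2.03, 1.01 and 0.877 CPM in TD, 0.0994, 0.09, 0.545 and 0.623 CPM under Strain, and 0.045, 0.729 and 0.0465 CPM under No Strain. Its libraries did not overlap with TD in either comparison, and its log2 fold changes were -1.85 (SE 0.675, adjusted p = 0.0937) and -2.14 (SE 0.776, adjusted p = 0.0768). Against both patches together Krt32 (-2.0, SE 0.574, adjusted p = 0.0276) and Krt35 (-2.90, SE 0.943, adjusted p = 0.0444) passed. The Krt32 call was lost in 4 of 12 fits without a library (adjusted p up to 0.0723). The Krt35 call was lost in 6 of the 9 such fits in which the gene could be tested (up to 0.0901), with values of -4.97 to -2.63. Krt35 too entered the test through its TD counts. Krt83 was at 0.0929 to 1.48 CPM in all 12 libraries and passed in none of the comparisons. The untested hair shaft genes had most of their counts in TD replicate 2: 24 of 36 for Krt31, 31 of 36 for Krt33a, 21 of 22 for Krt33b, all 17 for Krt34 and 20 of 30 for Krt81. Krt86 had 13 of 36 counts there. Krt31 had 0 counts in the 7 patched wounds, which allows up to 3 counts in a library. Copies of Krt31, Krt33a, Krt33b, Krt34, Krt81 and Krt86 share 4.05% to 25.0% of their windows with other keratins, so their counts can be split among them.

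Companion layer and infundibulum were represented by Krt75 and Krt79. Krt75, the type II keratin of the companion layer between the root sheaths, measured 11.1, 10.2, 31.3, 13.4 and 10.3 CPM in TD, 5.76, 2.57, 7.86 and 1.68 CPM under Strain, and 1.17, 4.33 and 1.77 CPM under No Strain. All patched wounds lay below all TD wounds. It was 6.27-fold lower under No Strain (log2 fold change -2.65, SE 0.637, adjusted p = 0.0179) and 3.40-fold lower under Strain, just outside the threshold (-1.77, SE 0.537, adjusted p = 0.0523). The No Strain call was lost without No Strain replicate 1 or 3 (adjusted p up to 0.0717), and the call for both patches (-2.21, SE 0.458, adjusted p = 0.00671) held in all 12 fits. Krt79, a keratin of the infundibulum and sebaceous duct, measured 624, 436, 617, 582 and 487 CPM in TD, 369, 594, 704 and 308 CPM under Strain, and 466, 536 and 273 CPM under No Strain. Log2 fold changes of Krt79 were -0.15 (SE 0.258, 95% interval -0.72 to 0.41) and -0.37 (SE 0.284), with adjusted p = 0.731 and 0.393.

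**Figure D4:**
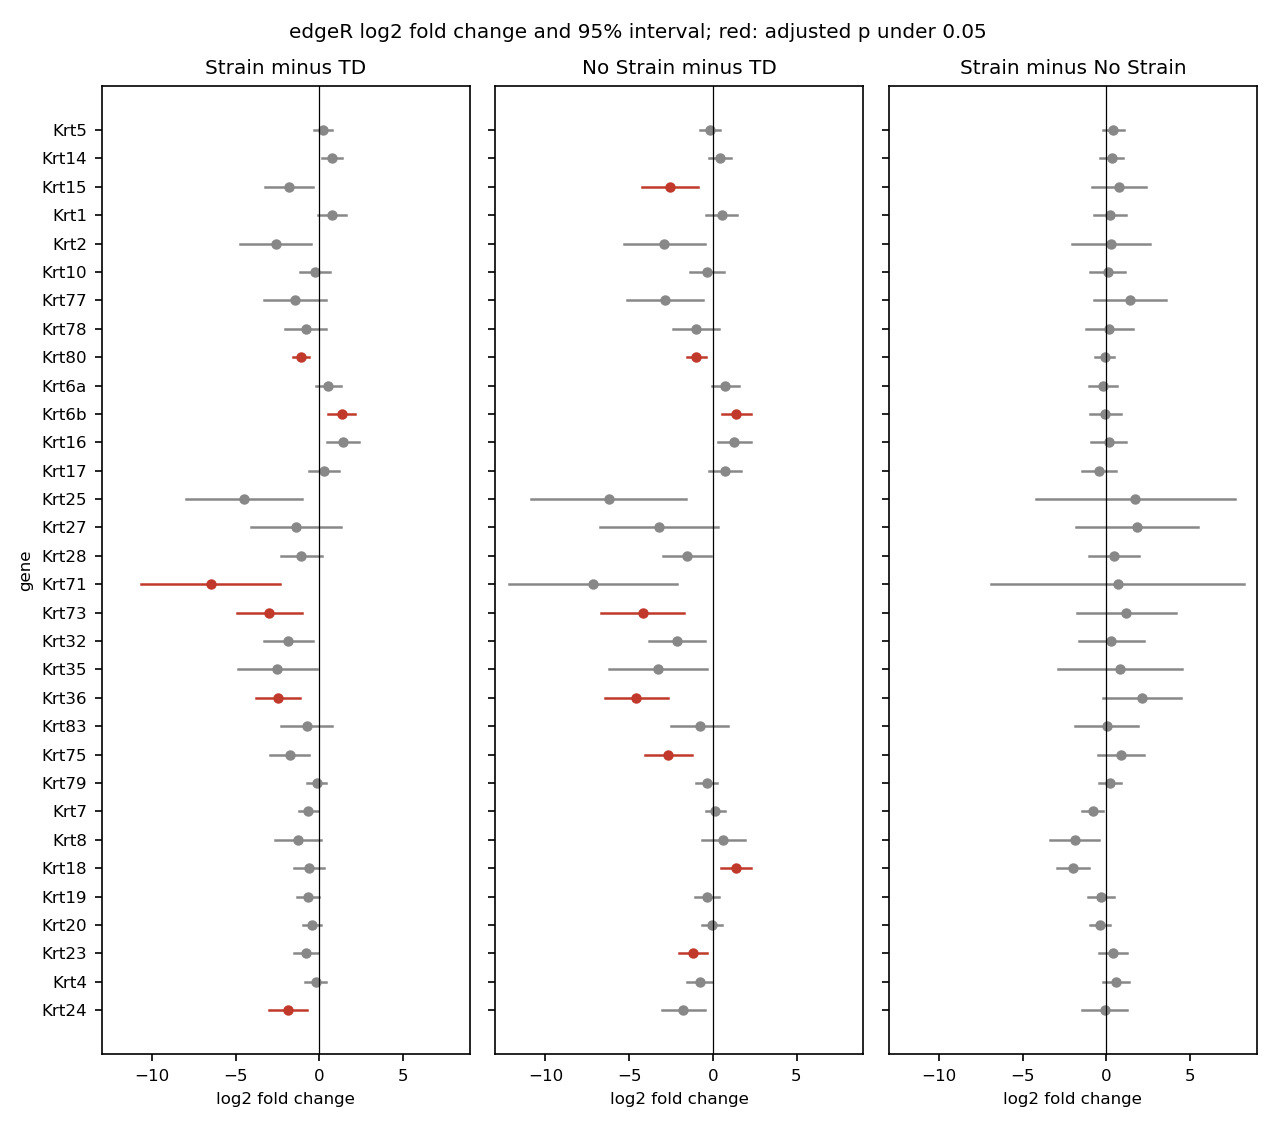
edgeR log2 fold change (point) and 95% interval (line) of each tested keratin, for Strain minus TD, No Strain minus TD and Strain minus No Strain, with red for an adjusted p under 0.05. There are 6, 8 and 0 red genes in the panels, and the widest intervals belong to Krt71 and Krt25.

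Keratins of simple epithelia were scarce. Krt23, a type I member, was the most abundant, at 35.6, 39.5, 59.6, 53.7 and 37.8 CPM in TD, 30.1, 13.8, 43.8 and 17.1 CPM under Strain, and 18.7, 27.1 and 13.8 CPM under No Strain. All No Strain wounds lay below TD. It was 2.28-fold lower there (log2 fold change -1.19, SE 0.37, adjusted p = 0.047, edgeR), a call lost in 8 of 12 fits without a library (up to 0.165), and -0.79 (SE 0.329, adjusted p = 0.136) under Strain. Krt18, the type I keratin that pairs with Krt8, measured 1.97, 1.40, 0.518, 1.13 and 0.833 CPM in TD, 0.845, 0.675, 0.818 and 0.719 CPM under Strain, and 2.70, 1.54 and 4.97 CPM under No Strain. Its log2 fold change was 1.38 (SE 0.399, adjusted p = 0.0349) for No Strain against TD, a call lost in 6 of 12 fits without a library (up to 0.202), and -0.61 (SE 0.415, adjusted p = 0.355) for Strain against TD.

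Krt18 was also the keratin with the smallest p between the patches. All Strain wounds lay below all No Strain wounds, and the log2 fold change was -2.0 (SE 0.442, unadjusted p = 0.000753, adjusted p = 0.872 in edgeR). DESeq2 gave -2.01 with adjusted p = 0.0253. Krt8, its type II partner, measured 3.62, 1.03, 0.997, 0.485 and 1.14 CPM in TD, 0.298, 0.540, 0.701 and 0.863 CPM under Strain, and 1.76, 0.987 and 4.04 CPM under No Strain, with -1.89 (SE 0.671, adjusted p = 0.872) between the patches. Krt7, also of simple epithelia, was at 0.994 to 1.71 CPM under Strain and 1.67 to 3.21 CPM under No Strain, with -0.81 (SE 0.285, adjusted p = 0.872). Krt20, the marker of gut and Merkel cells, measured 2.26, 4.15, 1.63, 2.87 and 2.37 CPM in TD, 2.24, 1.76, 1.71 and 2.16 CPM under Strain, and 2.34, 3.13 and 2.18 CPM under No Strain, and Krt19 was at 1.03 to 3.16 CPM. Neither passed in any comparison.

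For the abundant keratins the interval between the patches bounds the difference. Krt5 had a Strain minus No Strain log2 fold change of 0.41 (SE 0.284), Krt14 of 0.32 (SE 0.32), Krt6b of -0.06 (SE 0.416, 95% interval -0.97 to 0.85), Krt16 of 0.13 (SE 0.487, 95% interval -0.94 to 1.2) and Krt80 of -0.11 (SE 0.251, 95% interval -0.66 to 0.44). Differences within those intervals are not excluded. The intervals rest on the fit of all libraries and are not limits of detection. Krt18, with a 95% interval of -2.96 to -1.03 between the patches, did not pass either (edgeR adjusted p = 0.872). For Krt71 the interval of -6.87 to 8.21 sets no useful bound.

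Of the mucosal and remaining keratins, Krt24, a type I member seen in differentiating keratinocytes, measured 4.81, 6.82, 8.77, 4.80 and 3.90 CPM in TD, 0.547, 0.45, 3.78 and 1.49 CPM under Strain, and 1.53, 1.54 and 2.09 CPM under No Strain. All patched wounds lay below all TD wounds. It was 3.65-fold lower under Strain (log2 fold change -1.87, SE 0.521, adjusted p = 0.039, edgeR), a call lost in 9 of 12 fits without a library, and 3.38-fold lower under No Strain, outside the threshold (-1.76, SE 0.577, adjusted p = 0.0563). For both patches the change of -1.81 (SE 0.434, adjusted p = 0.0129) held in all 12 fits. Krt4, a keratin of oral and oesophageal lining, measured 0.987, 1.44, 1.08, 1.33 and 0.965 CPM in TD, 0.845, 0.72, 1.40 and 1.01 CPM under Strain, and 0.36, 1.07 and 0.558 CPM under No Strain. It passed in no comparison. Krt13, its type I partner, had 90 counts in all, at most 13 in a library, and was not tested.

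Ratios between keratin counts of a single wound need no scaling between libraries. Krt5 to Krt14, the basal pair, had a log2 ratio of -0.39, -0.27, 0.11, -0.10 and -0.38 in TD, -0.91, -0.61, -0.54 and -0.93 under Strain, and -1.01, -0.59 and -0.81 under No Strain. The patched wounds all lay below TD, by a mean of 0.54 log2 units under Strain (TD -0.20 ± 0.212, SD, n = 5; Strain -0.75 ± 0.20, SD, n = 4; two-sided exact permutation p = 0.00794, adjusted p = 0.107). The difference was -0.60 under No Strain (-0.80 ± 0.209, SD, n = 3; exact permutation p = 0.0179, adjusted p = 0.107). Both p-values are the smallest these group sizes allow. Krt16 to Krt14 differed by 0.69 between No Strain and TD (exact permutation p = 0.0179, adjusted p = 0.107) and by 0.56 between Strain and TD (exact p = 0.0556, adjusted p = 0.167). Krt10 to Krt14, suprabasal to basal, differed by -1.04 under Strain (exact p = 0.111) and by -0.99 under No Strain (exact p = 0.0357, adjusted p = 0.129). Krt1 to Krt5 differed the other way, by 0.61 under Strain (exact p = 0.0238, adjusted p = 0.107). Of the 18 ratio tests 5 had an unadjusted p under 0.05 and 0 passed after adjustment. With groups of this size, a ratio passes after adjustment over 18 tests only if several ratios reach the smallest possible p together. A result of 0 was thus likely in advance and does not show that the ratios are alike.

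**Figure D5:**
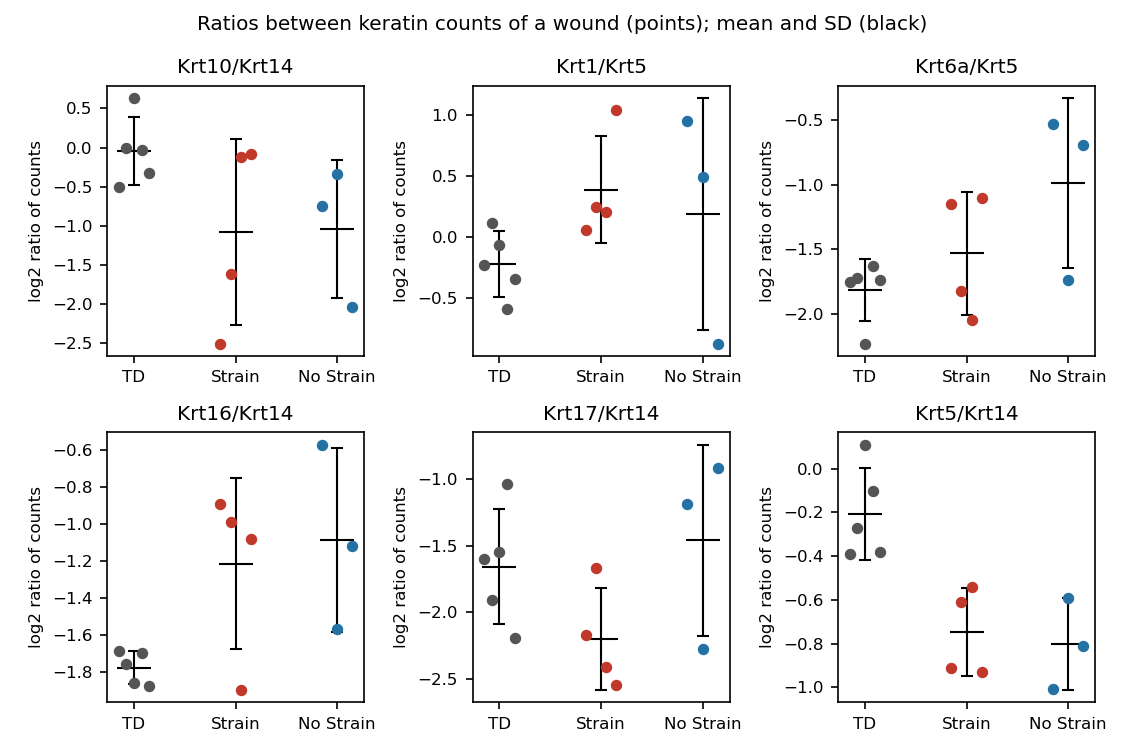
Log2 ratios of the counts of 6 keratin pairs in each wound (points), with mean and SD of each group in black. The Krt5/Krt14 ratio is lower in all 7 patched wounds than in the 5 TD wounds. No ratio test passed after adjustment, which the group sizes made likely in advance.

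The genes that hold keratin filaments and those that control them were read from lists. Among 16 linkers and desmosomal partners, 0 passed for Strain against TD in edgeR, against 12.6% of all genes. At an unadjusted p under 0.05 there were 4, against 29.5% of all genes. For No Strain 2 passed (12.5%, against 17.8% of all genes), both lower. These were Dst, which ties keratins to hemidesmosomes, at -0.50 (SE 0.129, adjusted p = 0.0241), and Eppk1, a plakin that bundles keratins, at -1.29 (SE 0.38, adjusted p = 0.0381). With both patches set together against TD, 3 of the 16 passed, all lower (18.8%, against 12.1% of all genes lower). Among 20 regulators of keratinocytes and follicles, 1 was higher and 1 lower under Strain (10%, against 12.6% of all genes). Under No Strain 1 was higher and 4 were lower (25%, against 17.8% of all genes). Prdm1, a repressor active in terminal differentiation, was higher in both, with log2 fold changes of 0.64 (SE 0.168, adjusted p = 0.0313) and 1.03 (SE 0.18, adjusted p = 0.00511). Sox9, needed for follicle stem cells, was lower in both, at -0.81 (SE 0.206, adjusted p = 0.0285) and -0.99 (SE 0.229, adjusted p = 0.015). Gata3, a factor of the inner root sheath, was lower under No Strain, at -1.46 (SE 0.325, adjusted p = 0.0132). Of the 12 other Krt symbols in the files, 4 were tested, and Krt84, a type II hair keratin, alone passed, higher under Strain at 1.86 (SE 0.543, adjusted p = 0.0457). Its level was low, at 0.175 to 1.11 CPM in TD and 1.08 to 4.32 CPM under Strain. These ranges overlap, and the highest value is that of Strain replicate 3. Of 58 keratin-associated protein genes, which cross-link the hair shaft, 1 had enough counts to be tested and it did not pass. Their summed level was 0.307 to 14.7 CPM in TD, 0.045 to 0.818 CPM under Strain and 0.045 to 0.257 CPM under No Strain. The 14.7 CPM is that of TD replicate 2 alone. The other TD wounds were at 0.307 to 1.08 CPM, which overlaps the Strain range.

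Other cell types differed between the groups beside the keratins. The 10 non-keratin epithelial markers, such as Epcam and Cdh1, gave 0 calls in edgeR under either patch, against 12.6% and 17.8% of all genes. At an unadjusted p under 0.05 there were 2 and 1, against 29.5% and 33.5% of all genes. Their summed level was 1320 to 1820 CPM in TD, 985 to 2030 CPM under Strain and 844 to 1780 CPM under No Strain. With both patches set together against TD, 1 gene of this list of 10 passed, lower (10%, against 12.1% of all genes lower). With that list as a covariate 8, 8, 0 and 14 keratins passed for Strain, No Strain, Strain against No Strain and both patches, and over all genes 2735, 3387, 0 and 4844. Skeletal muscle markers were lower for 7 of 10 under Strain and 3 of 10 under No Strain, against 6.41% and 8.4% of all genes. Their summed levels were 6340 to 15500, 2880 to 5480 and 4060 to 9040 CPM in TD, Strain and No Strain. All Strain wounds lay below all TD wounds in that sum, so a fit with the list as covariate cannot tell muscle content and the Strain patch apart. With the muscle list as a covariate 0, 1, 0 and 0 keratins passed in the same order of comparisons, and over all genes 1, 466, 0 and 20. The single keratin was Krt36 under No Strain, at -5.60 (adjusted p = 0.026).

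Adipocyte markers were lower for 5 and 7 of 8 (1130 to 2600, 789 to 1190 and 576 to 876 CPM), against 6.41% and 8.4% of all genes lower under Strain and No Strain. The shares of all genes that were higher were 6.2% and 9.35%. Neutrophil markers were higher for 6 of 8 under each patch (116 to 157, 213 to 373 and 275 to 653 CPM), and endothelial markers for 5 of 8 under each patch (431 to 554, 554 to 797 and 626 to 713 CPM). Markers of melanocytes, the pigment cells of hair follicles, were higher for 6 of 6 under Strain and 0 of 6 under No Strain (7.67 to 13.5, 21.6 to 77.1 and 8.83 to 36.1 CPM). Compared directly, the patches differed in 0 of these 6 markers (against 0% of all genes), and their ranges overlap. Macrophage (1090 to 2500, 1970 to 2620 and 1900 to 2930 CPM), fibroblast (43000 to 68100, 44100 to 75300 and 55500 to 69300 CPM) and sebocyte markers (266 to 534, 131 to 671 and 186 to 434 CPM) gave 0 calls in edgeR under either patch, against 12.6% and 17.8% of all genes. At an unadjusted p under 0.05 there were 0, 1 and 1 genes for Strain and 4, 1 and 1 for No Strain, against 29.5% and 33.5% of all genes. With both patches set together against TD, 1 of 6 sebocyte markers passed, lower (16.7%, against 12.1% of all genes lower), and no macrophage or fibroblast marker did. The part of these cell types in the keratin differences was not tested.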

How the data were processed

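Poly(A) RNA was sequenced from 12 wounds, 1 library each. The deposited values are raw counts per Ensembl gene, per the file headers. The submitters' processing notes name bcl2fastq 2.17, FastQC, cutadapt, STAR, featureCounts and DESeq2 with the build GRCm38, without role or order. Which annotation release and strand setting were used, and how reads matching several genes were counted, is not given in the sources used here. Symbols, coordinates and exon lengths came from GENCODE M21, in which 54165 of 54232 identifiers had a symbol. Groups came from the group label.

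Genes were kept by filterByExpr (minimum count 10, minimum total 15), leaving 18618. Libraries were scaled by TMM (factors 0.958 to 1.03) and all 12 entered 1 robust quasi-likelihood fit in edgeR 4.0.16 (R 4.3.3). Each standard error is the log2 fold change divided by the root of its F statistic. Adjusted p-values are Benjamini-Hochberg over all genes tested. Ratios of 2 counts had a pseudocount of 1 added to each and were compared by two-sided exact permutation tests, adjusted over 18 tests. Alternatives were DESeq2 1.42.0, other scalings and filters, covariates and leaving out each library. The members, gene lists and tests were chosen with earlier results of these data known. Library values are given for members past the threshold in any pairwise comparison and for the 2 members with the highest mean CPM per kb in each role, 21 genes in all, and in addition for Krt6a and Krt8. From each list of linkers, regulators, other Krt and Krtap genes, up to 2 genes per direction with the smallest p past the threshold are named. Cell type lists (epithelial, muscle, adipocyte, neutrophil, macrophage, fibroblast, endothelial, melanocyte, sebocyte) are given by counts and sums. Promoter sequences are from RefSeq (GRCm38.p6), which matched 28 of 42 keratins.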

Additional observations from a re-analysis of the deposited data

Results flagged for a closer look

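Of 80 sets of 4 or 5 wounds screened for a library far from the others, 3 held one, where chance gives about 1 in 20 sets, or 4.0. Krt75 stood at a log2 CPM of 4.97 in TD replicate 3, against 3.76 in the nearest TD wound. The summed level of suprabasal keratins was 12.93 in log2 CPM in Strain replicate 3, against 12.4 in the nearest Strain wound. The summed level of hair shaft keratins was 3.79 in log2 CPM in TD replicate 2, against 1.86 in the nearest TD wound.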

How the results depend on the processing

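Counts of keratins called shifted with the processing. For Strain against TD (6), no filter gave 2, a mean of at least 5 CPM 3, the title letter as covariate 1, the muscle list as covariate 0 and DESeq2 11, and leaving out 1 library gave 1 (without Strain replicate 2) to 8. Over all genes, with 2349 calls, these settings gave 1527, 1868, 798, 1, 3518 and, without Strain replicate 2, 882. For No Strain against TD (8) the same settings gave 2, 5, 3, 1 and 16, and leaving out 1 library gave 2 (without No Strain replicate 1 or 3) to 11. Over all genes, with 3305 calls, they gave 2381, 2516, 2145, 466 and 4372, and 1668 and 1505 without No Strain replicate 1 or 3. For both patches (14) they gave 9, 8, 6, 0 and 16, and leaving out 1 library 9 (without No Strain replicate 1) to 16. Over all genes, with 4552 calls, they gave 3471, 3387, 2589, 20, 5498 and, without No Strain replicate 1, 3558. Between the patches DESeq2 gave 1, of 28 over all genes, and leaving out 1 library 0 to 0. All ratio tests stayed at 0 calls, which the group sizes made likely in advance. The meaning of the title letter, L or R, is unstated, and the letter partly follows the patch. The muscle level separates the Strain wounds from the TD wounds. The cause of these shifts was not tested. No paired analysis was possible because no pair of samples shares a title number and replicate numbers follow accession order.

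Of 1724 values recomputed, 1464 kept direction and side of the threshold, 68 moved past it, 165 fell short of it and 27 changed sign. The tally includes the ratio tests, whose lack of calls was likely in advance, so the count that kept its side is partly set by that. Signs changed with the muscle covariate for Krt7 (0.30), Krt10 (0.31), Krt18 (0.24) and Krt79 (0.10) under Strain and Krt10 (0.05) under No Strain, with the letter for Krt10 under Strain (0.05), and with the epithelial covariate for Krt5 under No Strain (0.04). With medians, Krt1/Krt5 (-0.26) and Krt16/Krt14 (0.08) changed sign between the patches. Without 1 library, fold changes ran from -0.39 to 0.02 for Krt79 under Strain and, under No Strain, from -0.14 to 0.97 for Krt1, -0.40 to 0.01 for Krt5, -0.77 to 0.09 for Krt10 and -0.24 to 0.16 for Krt20. Ratios between the patches ran from -0.54 to 0.43 (Krt10/Krt14), -0.33 to 0.58 (Krt1/Krt5), -0.37 to 0.13 (Krt16/Krt14) and -0.05 to 0.16 (Krt5/Krt14), and Krt17/Krt14 for No Strain against TD from -0.07 to 0.61. None of these passed the threshold in the main analysis. Depth limits the hair shaft keratins, which had at most 17 counts in any patched wound.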

Other observations

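The ratio of Krt6b to Krt6a counts, chosen after its values were seen, was 1.31, 1.03, 1.2, 1.08 and 1.16 in TD, 2.12, 2.03, 1.87 and 2.00 under Strain, and 1.86, 1.78 and 1.81 under No Strain. The 7 patched wounds lay above the 5 TD wounds and no test was made, since reads of these copies can be split between them. The ratio of Krt1 to Krt10 counts, which pair in suprabasal filaments, was 0.92, 0.90, 0.67, 0.64 and 0.77 in TD, 3.16, 2.40, 0.86 and 1.15 under Strain, and 1.61, 1.18 and 1.28 under No Strain. It was below 1 in every TD wound and above 1 in 6 of the 7 patched wounds, all but Strain replicate 3. This ratio was not among those set for testing, and no test of it was made. Counts are not scaled for exon length (4415 bases for Krt1, 2114 for Krt10), so a ratio of 1 does not mark equal levels.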
